A study of Mus musculus with 6 samples.

Results

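Notch signalling and the surface profile of marginal zone B cells were followed here through 10 genes: Notch1, Notch2, Rbpj, Dtx1, Hes1, Hes5, Cd9, Cr2, S1pr3 and Cd1d1. They were chosen by name out of the 23420 genes of the count table, with results of the same genotype comparison in view, so their differences between genotypes are given as a description and no p-value is attached to them. All 10 passed the minimum of 10 counts over the 6 libraries, as did 13682 genes in all.

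The RNA came from splenic B cells of 3 Ahr+/+ and 3 Ahr-/- mice, labelled as C57Bl/6J. Every culture ran for 8 h with 10 μg/ml anti-IgM, which cross-links the B cell receptor, and 20 ng/ml IL-4. Every culture also received 250 nM FICZ, a ligand of the aryl hydrocarbon receptor (AhR), over the last 4 h, so both genotypes were stimulated and no resting or ligand-free cells were compared. Ahr-/- mice (a B6.129 line in the study's methods) carry a germline deletion, and all cells of those animals, not B cells alone, developed without AhR. The study used adult mice of matched age and gender and enriched the B cells by removing other cells, without separating marginal zone from follicular B cells. The comparison asks how the transcriptome of stimulated B cells differs when AhR is missing.

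Notch receptors are cut after they bind a ligand on a neighbouring cell, and the freed intracellular part joins the DNA-binding protein RBPJ to switch on target genes such as Dtx1 and members of the Hes family. In the spleen, Notch2, activated by the ligand Dll1 on stromal cells, is needed for marginal zone B cells to form. These cells line the marginal sinus and are known by high CD21 (the product of Cr2), CD1d, CD9 and sphingosine-1-phosphate receptors that hold them there. Recirculating follicular B cells carry less of these and more CD23 (the product of Fcer2a).

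Total counts lay between 34402709 and 40065169 in the Ahr+/+ libraries and between 22095096 and 53648787 in the Ahr-/- libraries. Values are normalised counts, that is, counts divided by the TMM-scaled library size relative to the mean library, and 3 counts correspond to 2.13 to 5.15 normalised counts. Ahr itself had 12681, 12892 and 13953 normalised counts in Ahr+/+ and 8856, 8949 and 9717 in Ahr-/- (log2 fold change −0.52, adjusted p = 7.1e-06 from edgeR). The genotypes did not overlap for Ahr, but many reads still fell on the gene in Ahr-/- cells. The count covers the whole gene, without showing which exons were read, and Ahr overlaps Gm48236 on the opposite strand. None of the 10 genes lies on chromosome 12, which holds Ahr. B cell markers summed to between 50682 and 53622 normalised counts in Ahr+/+ and between 62242 and 65500 in Ahr-/-, with 4 of 5 higher and none lower, and these were the most abundant of the markers examined. The genome-wide background was 2453 of 13682 genes past an adjusted p of 0.05, or 17.9%, of which 1113 (8.13%) were lower and 1340 (9.79%) higher in Ahr-/-. The 3 libraries of a genotype lay entirely to one side of the other 3 for 4580 genes, or 33.5%.

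Dtx1, Cd9, Rbpj, Notch1 and Hes1 were lower in Ahr-/- B cells, Notch2 and Hes5 were at nearly the same level in both genotypes, and Cr2 and S1pr3 were higher. Cd1d1 had a fitted 1.46-fold higher level without passing the threshold. In the fit over all genes, 5 of the 10 were past the threshold and lower, beside 8.13% of all genes, and 2 were past it and higher, beside 9.79%. For 7 of the 10 the genotypes lay fully apart, 5 lower and 2 higher (S1pr3 and Cd1d1), beside 33.5% of all genes. Those of Cr2 overlapped. The same contrast was known when the genes were listed, so nothing is read from these counts. The median log2 fold change was −0.28 over the 10 genes and 0.00 over all genes tested, and the median size of the change was 0.55 and 0.11. In bulk RNA such as this, fewer cells of a type and less RNA per cell cannot be told apart. By flow cytometry, the study saw B cell subsets distributed without major differences when AhR was missing from B cells or from all cells. That was measured in non-immune mice, not in these cultures.

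**Figure D1:**
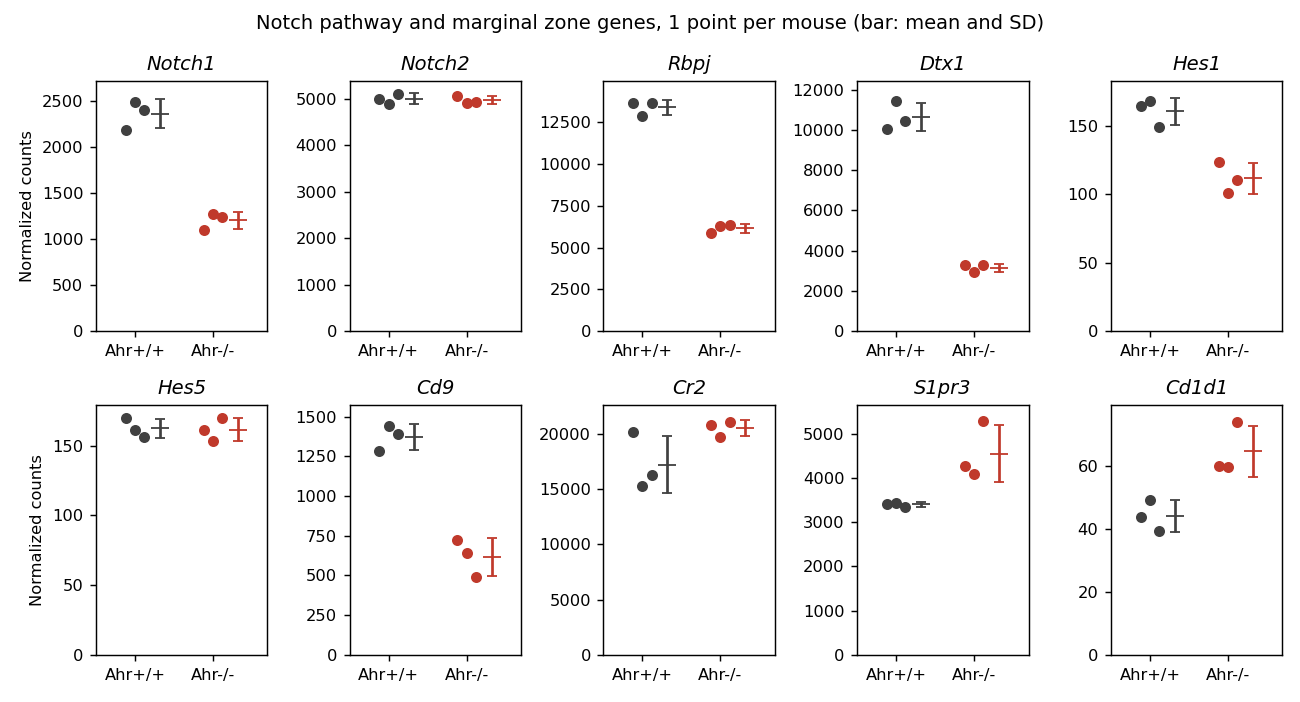
Normalised counts (vertical axes, from 0) of the 10 genes in Ahr+/+ (grey) and Ahr-/- (red) B cells. Each point is 1 mouse and the bars are the mean ± SD of 3 mice. Dtx1, Rbpj, Cd9, Notch1 and Hes1 are lower in every Ahr-/- mouse, Notch2 and Hes5 overlap, and the Ahr+/+ mouse at 20140 places Cr2 among the overlapping genes too.

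Of the receptors, Notch1 was lower in Ahr-/- cells and Notch2 was at nearly the same level. Notch1, which drives T cell fate and is also expressed in activated B cells, spans chr2:26457903-26516663 on the minus strand of GRCm38. It had 2189, 2494 and 2405 normalised counts in Ahr+/+ and 1102, 1270 and 1244 in Ahr-/-. Every Ahr-/- library was below every Ahr+/+ library. The means were 2363 ± 157 and 1205 ± 90.3 (SD, n = 3), a fitted 1.95-fold lower level, and the log2 fold change was −0.96 (standard error, SE, 0.061, 95% interval −1.09 to −0.83). T cell markers, looked at because T cells also express Notch1, summed to between 6066 and 6483 normalised counts in Ahr+/+ and between 6137 and 7094 in Ahr-/-, with 1 of 9 lower, 1 higher and none at 0 throughout. Lck made up most of this sum, and the other 8 summed to between 223 and 374 in Ahr+/+ and between 300.4 and 357 in Ahr-/-. Of these, 3 had a positive and 5 a negative log2 fold change. Cd3e was the lower call (−1.26, adjusted p = 0.0090 from edgeR) and Cd5, also a gene of B1 cells, the higher one (1.35, adjusted p = 3.1e-04 from edgeR). Beside these marker counts, 8.13% of all genes were lower and 9.79% higher. The part of T cells in the Notch1 result was not tested.

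Notch2, the receptor required for marginal zone B cells, spans chr3:98013527-98150361 on the plus strand. Its normalised counts were 5001, 4882 and 5112 in Ahr+/+ and 5063, 4899 and 4941 in Ahr-/-. The libraries of the genotypes were interleaved. The log2 fold change was −0.01 (SE 0.037), with a 95% interval of −0.09 to 0.07. Per kb of annotated exon, Notch2 exceeded Notch1 by 3.02-, 2.58- and 2.81-fold in the Ahr+/+ libraries and by 6.07-, 5.09- and 5.24-fold in the Ahr-/- libraries. Notch1 shares exon sequence with 2 transcripts annotated on the opposite strand (0610009E02Rik and Gm13568) and Notch2 with Gm42820 on its own strand, so some reads could belong to either. The libraries were stranded, but the strand setting of the counting is not given in the sources used here.

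Rbpj, the DNA-binding partner of all Notch receptors, spans chr5:53466152-53657362 on the plus strand. It had 13631, 12845 and 13652 normalised counts in Ahr+/+ and 5853, 6303 and 6323 in Ahr-/-. The genotypes were far apart, and the Ahr-/- mice differed little among themselves. The means were 13376 ± 460 and 6159 ± 266 (SD, n = 3), a fitted 2.17-fold lower level, and the log2 fold change was −1.12 (SE 0.042, 95% interval −1.21 to −1.02). Rbpjl, its paralog, had 4 counts over all libraries and was not tested.

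Dtx1, a Deltex ubiquitin ligase that is a Notch target and a modulator of Notch signalling, spans chr5:120680202-120711927 on the minus strand. Normalised counts were 10040, 11407 and 10438 in Ahr+/+ and 3275, 2919 and 3275 in Ahr-/-. It was the most reduced of the 10 genes, with means of 10628 ± 703 and 3156 ± 206 (SD, n = 3), a fitted 3.37-fold lower level. The log2 fold change was −1.75 (SE 0.058, 95% interval −1.88 to −1.63). Of the 13682 genes tested, 148 had a lower log2 fold change than Dtx1, 307 than Cd9, 330 than Rbpj, 429 than Notch1 and 851 than Hes1.

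The Hes repressors gave different values. Hes1, at chr16:30064384-30067796 on the plus strand, encodes the repressor most often used as a readout of Notch activity. It had 164, 168 and 149 normalised counts in Ahr+/+ and 124, 101 and 110 in Ahr-/-. The genotypes did not overlap, and the means of 161 ± 9.84 and 112 ± 11.4 (SD, n = 3) gave a fitted 1.46-fold lower level (log2 fold change −0.55, SE 0.13, 95% interval −0.82 to −0.27). Without Ahr-/- replicate 2, which was the lowest of the 6 libraries, Hes1 was no longer past the threshold at −0.47. Hes5, at chr4:154960923-154962371 on the plus strand, is another Notch-dependent repressor of the same family. It had 170, 161 and 156 normalised counts in Ahr+/+ and 161, 154 and 170 in Ahr-/-. Its libraries overlapped between the genotypes (log2 fold change −0.01, 95% interval −0.25 to 0.23). Exons of Hes5 overlap Gm20421 on the opposite strand.

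Short sequence elements near the start sites were looked up because AhR with its partner ARNT, and RBPJ, each bind a known core. Both strands of the 250 bases before each RefSeq start (GRCm38.p6) were searched for the AhR core GCGTG and the RBPJ core TGGGAA, and 8 of the 10 genes had an entry. The set of promoter sequences used here held none for Hes1 and Cd1d1, so these genes were not searched. The lines show the sites of Rbpj, Dtx1 and Cd9, which were lower in Ahr-/-, beside those of Notch2 and a pair from Hes5, which had nearly equal levels. Each runs 5′ to 3′ on the strand of the gene, with 10 bases to each side and the core, or its reverse complement, in capitals.
Rbpj, chr5:53590187-53590212: tgaaaaaggcTGGGAAcccgcggcga
Rbpj, chr5:53590271-53590296: cgctcgcattTTCCCAggacccctcc
Dtx1, chr5:120711731-120711755: tcggtgactcGCGTGtcacagcggc
Cd9, chr6:125494956-125494981: cccgagacggTGGGAAgaaggaagat
Notch2, chr3:98013486-98013510: ggcggaaggaCACGCgggccgccca
Hes5, chr4:154960831-154960856: ccgccgagtgTGGGAAcggccgcggc
Hes5, chr4:154960894-154960918: tatagggctgGCGTGctggggtcca

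The AhR core was present before 3 of the 8 genes (Notch2, Dtx1 and Hes5) and in 28.2% of all 32851 promoter windows of this length. The RBPJ core was present before 4 (Rbpj, Hes5, Cd9 and Cr2) and in 21.6% of all windows. No AhR site overlapped an RBPJ site. Notch2 held the AhR core and Hes5 held both, with nearly equal levels in the genotypes. Dtx1, with the AhR core, and Rbpj and Cd9, with the RBPJ core, were lower. Cr2, with the RBPJ core, was higher, as was S1pr3, which held neither. Notch1 held neither and was lower. The windows of Notch1 and Rbpj lie inside the gene spans given above, and the outermost annotated starts of these genes were not searched. The part of these sites in the levels was not tested. The Dtx1 site lies 72 to 76 bases before the RefSeq start, and the stretch printed for it overlaps an annotated Dtx1 exon. The stretch of Rbpj that ends at 53590296 overlaps an annotated Rbpj exon. A match to such short letters describes the sequence and is not a binding site.

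Among the marginal zone surface genes, Cd9 was lower in Ahr-/-, Cr2 and S1pr3 were higher, and Cd1d1 did not pass the threshold. Cd9 encodes a tetraspanin found on marginal zone B cells, B1 cells and plasma cells, and spans chr6:125460266-125494791 on the minus strand. It had 1282, 1440 and 1391 normalised counts in Ahr+/+ and 724, 644 and 488 in Ahr-/-. The genotypes were well apart, with the widest spread among the Ahr-/- mice. The means were 1371 ± 80.8 and 619 ± 120 (SD, n = 3), a fitted 2.25-fold lower level, and the log2 fold change was −1.17 (SE 0.10, 95% interval −1.40 to −0.94).

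CD9 is also present on cells other than B cells, and their markers were looked at beside it. Macrophage and monocyte markers summed to between 788 and 1035 normalised counts in Ahr+/+ and between 223 and 686 in Ahr-/-. Of the 9 measured, 1 was lower (Emr1, log2 fold change −3.60, adjusted p = 2.9e-09 from edgeR) and 1 higher (Cd14), none was at 0 in all libraries, and C1qa, C1qb and C1qc had between 1 and 12 counts in any library. Without Emr1 the other 8 summed to between 134 and 373 in Ahr+/+ and between 188 and 623 in Ahr-/-, and 6 of them had a positive log2 fold change. Megakaryocyte and platelet markers summed to between 1977 and 2447 in Ahr+/+ and between 2548 and 3165 in Ahr-/-, with 1 of 6 higher and none at 0 throughout. Nearly all of this was Itgb3, and the other 5 summed to between 84.5 and 101 in Ahr+/+ and between 79.6 and 94.4 in Ahr-/-. Plasma cell markers summed to between 14210 and 20211 and between 13375 and 15019, with 2 of 4 lower, 1 higher and none at 0 throughout. Without Xbp1 the other 3 summed to between 6899 and 12499 and between 4588 and 5962. Beside these marker counts, 8.13% of all genes were lower and 9.79% higher. The part of these cells in the Cd9 result was not tested.

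Cr2 encodes complement receptor 2, which lowers the threshold of B cell activation, and spans chr1:195136811-195176716 on the minus strand. It had 20140, 15284 and 16273 normalised counts in Ahr+/+ and 20789, 19737 and 21075 in Ahr-/-. The means were 17232 ± 2566 and 20534 ± 705 (SD, n = 3), a fitted 1.19-fold higher level (log2 fold change 0.25, SE 0.078). The genotypes overlapped, because Ahr+/+ replicate 1 was above Ahr-/- replicate 2. In the same fit the 5 B cell markers had log2 fold changes from 0.14 to 0.65, with a median of 0.26. At the threshold of 0.05, Cr2 was past it in edgeR but not in 7 of 14 alternatives, DESeq2 among them. It was also not past the stricter threshold of 0.01 in edgeR.

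S1pr3, a sphingosine-1-phosphate receptor enriched on marginal zone B cells, spans chr13:51408639-51422797 on the plus strand. It had 3412, 3442 and 3348 normalised counts in Ahr+/+ and 4262, 4097 and 5288 in Ahr-/-. The Ahr+/+ mice were nearly equal and all Ahr-/- mice were above them, replicate 3 most. The means were 3401 ± 48.1 and 4549 ± 645 (SD, n = 3), a fitted 1.34-fold higher level (log2 fold change 0.42, SE 0.077, 95% interval 0.25 to 0.59). S1pr3 shares exon sequence with Gm32834 on the opposite strand, as Cd9 does with Gm26728.

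Cd1d1 encodes CD1d, which presents lipids to natural killer T cells, and spans chr3:86995834-86999441 on the minus strand. It was the least abundant of the 10 genes, with 45, 49 and 35 counts in Ahr+/+ and 35, 84 and 81 in Ahr-/-, or 43.7, 49.3 and 39.3 against 60.1, 59.7 and 73.9 normalised counts. The genotypes did not overlap, yet the fitted difference of 1.46-fold (log2 fold change 0.55, SE 0.19, 95% interval 0.15 to 0.95) did not pass the threshold over all genes. Reads of Cd1d1 could be shared with its near-identical paralog Cd1d2, which had 2 counts in all.

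S1pr3 and Cd1d1 are also expressed outside the B cell lineage. Endothelial markers summed to between 586 and 666 normalised counts in Ahr+/+ and between 439 and 496 in Ahr-/-, with 1 of 4 tested lower and 1 higher. Without Pecam1 the other 3 tested summed to between 25.2 and 41.6 in Ahr+/+ and between 49.8 and 64.7 in Ahr-/-. Stromal and follicular dendritic cell markers summed to between 145 and 147 and between 171 and 215, with 1 of 2 tested higher and Ccl21a at 0 in every library. Conventional dendritic cell markers summed to between 820 and 937 and between 882 and 1073, with 4 of 8 higher, 1 lower and none at 0 throughout. Without Zbtb46 the other 7 summed to between 284 and 357 and between 458 and 636. Plasmacytoid dendritic cell markers summed to between 3583 and 4135 in Ahr+/+ and between 4730 and 5792 in Ahr-/-. Of the 8, 7 were higher and none was at 0 throughout. Without Bst2 the other 7 summed to between 1653 and 1797 in Ahr+/+ and between 2659 and 2794 in Ahr-/-. Beside these marker counts, 9.79% of all genes were higher and 8.13% lower. The part of these cells in the S1pr3 and Cd1d1 values was not tested.

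On a scale of normalised counts per kb of exon, which allows genes to be set side by side, the order of the levels differed between the genotypes. In Ahr+/+ cells Cr2 (2124 per kb) and Dtx1 (2017 per kb) were at the top and overlapped each other. They were followed by Rbpj at 1049, S1pr3 at 762, Cd9 at 671, Notch2 at 464, Notch1 at 166, Hes5 at 119, Hes1 at 78.8 and Cd1d1 at 17.2 per kb, and none of these overlapped its neighbour. In Ahr-/- cells Cr2 was at 2531 per kb, S1pr3 at 1019, Dtx1 at 599, Rbpj at 483, Notch2 at 461, Cd9 at 303, Hes5 at 118, Notch1 at 84.7, Hes1 at 54.8 and Cd1d1 at 25.1. Here only Rbpj and Notch2 overlapped as neighbours. Dtx1 overlapped Cr2 in Ahr+/+ and was below both Cr2 and S1pr3 in Ahr-/-. The ratio of Cr2 to Cd9 per kb was 3.96, 2.67 and 2.95 in Ahr+/+ and 7.23, 7.72 and 10.9 in Ahr-/-.

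**Figure D2:**
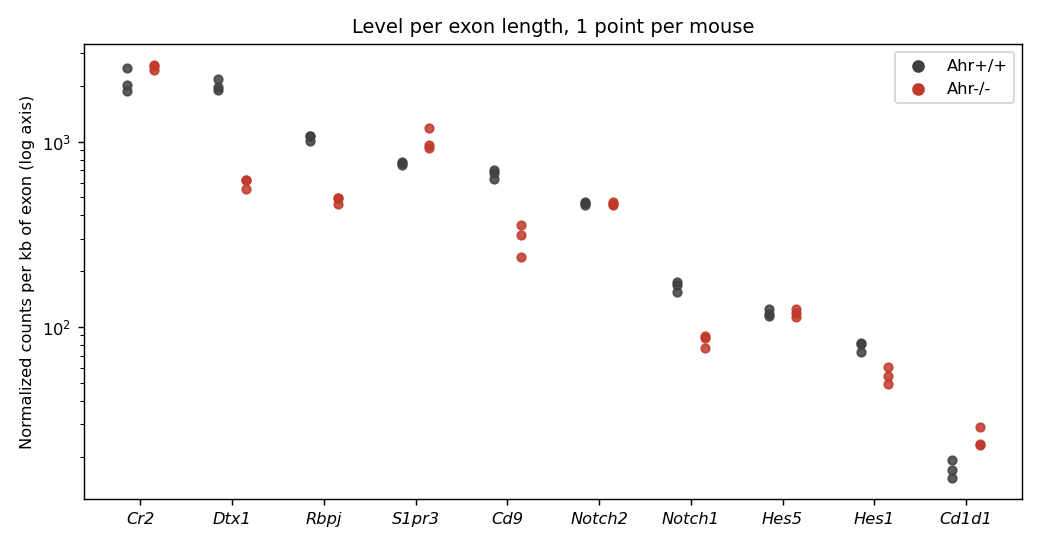
Level of each gene in normalised counts per kb of annotated exon (vertical log axis), ordered by the Ahr+/+ mean, with 1 point per mouse. Levels range from 17.2 per kb for Cd1d1 to 2124 per kb for Cr2 in Ahr+/+, and Dtx1 is at 2017 per kb in Ahr+/+ and 599 per kb in Ahr-/-.

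Further Notch pathway genes were taken as 6 lists by role. Of their 64 tested genes, 8 were lower and 8 higher in Ahr-/- (beside 8.13% and 9.79% of all genes), with a median log2 fold change of −0.01, against 0.00 for all genes. For 25 of them the genotypes lay fully apart, 12 lower and 13 higher, beside 33.5% of all genes. The lists were drawn up with earlier results of these data known, so these counts describe the genes listed.

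Other receptors and ligands were scarce. Of 7 tested with edgeR, 2 were higher and none lower (3 and 0 at an unadjusted p under 0.05), beside 9.79% and 8.13% of all genes, with a median log2 fold change of 0.49. Notch3 had 1, 2 and 0 counts in Ahr+/+ and 3, 11 and 7 in Ahr-/- (adjusted p = 0.022 from edgeR), which as summed counts is a ratio of 6.61 with a 95% interval of 1.97 to 34.6 for counting error alone. Dll4, an endothelial Notch ligand, had 7, 13 and 5 counts against 10, 31 and 26 (log2 fold change 1.31, SE 0.36, adjusted p = 0.023 from edgeR). Notch4, a mostly endothelial receptor, did not pass the test (log2 fold change 0.35, adjusted p = 0.60 from edgeR). In DESeq2, Dll4 was not past the threshold (adjusted p = 0.088) and Notch3 received no adjusted p.

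Of 5 genes that add sugars to Notch, only Mfng, a Fringe enzyme, passed the test (beside 17.9% of all genes), at a log2 fold change of 0.14 (adjusted p = 0.043 from edgeR), and it did not pass in DESeq2 (adjusted p = 0.083). Of 17 tested for cleavage and ligand handling, 3 were higher and 1 lower, beside 9.79% and 8.13% of all genes. The higher ones were the tetraspanin genes Tspan33 (log2 fold change 0.93, adjusted p = 0.0087 from edgeR), Tspan14 (0.40, adjusted p = 2.7e-05 from edgeR) and Tspan5 (0.17, adjusted p = 0.026 from edgeR), while Tspan15 of the same list did not pass (−0.58, adjusted p = 0.55 from edgeR). Tspan33 had 26, 32 and 30 counts in Ahr+/+ and 38, 86 and 53 in Ahr-/-. Neurl3, a Neuralized ubiquitin ligase, was the lower one (−0.52, adjusted p = 0.0038 from edgeR).

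Of 18 cofactors in the nucleus tested with edgeR, 3 were lower and none higher (5 and 2 at an unadjusted p under 0.05), beside 8.13% and 9.79% of all genes, with a median log2 fold change of −0.05. Tle4, a Groucho co-repressor that Hes proteins recruit, had 12059, 12155 and 12571 normalised counts in Ahr+/+ and 6690, 6495 and 6572 in Ahr-/-. Its genotypes were far apart (log2 fold change −0.90, SE 0.035, adjusted p = 2.9e-09 from edgeR). Cir1, a co-repressor that binds RBPJ, fell by 0.23 on the log2 scale (adjusted p = 0.032 from edgeR), and the histone demethylase Kdm5a fell by 0.16 (adjusted p = 0.0091 from edgeR). Without Ahr-/- replicate 3, 7 of these cofactors were past the threshold.

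Of 12 genes of receptor turnover and inhibition, 3 were lower and 2 higher, beside 8.13% and 9.79% of all genes. Dtx4, a Deltex paralog of Dtx1, had 2084, 2416 and 2227 normalised counts in Ahr+/+ and 817, 695 and 732 in Ahr-/- (log2 fold change −1.60, SE 0.067, adjusted p = 4.9e-09 from edgeR). Dtx1 exceeded Dtx4 per kb of exon by 4.78-, 4.68- and 4.65-fold in Ahr+/+ and by 3.97-, 4.17- and 4.44-fold in Ahr-/-. The other Deltex genes did not pass the test, with log2 fold changes of 0.03 for Dtx2, 0.13 for Dtx3 and −0.16 for Dtx3l (adjusted p = 0.78, 0.13 and 0.19 from edgeR). Nrarp, a Notch target that restrains the RBPJ complex, had 63.1, 97.6 and 70.8 normalised counts in Ahr+/+ and 46.3, 44.1 and 37.4 in Ahr-/- (log2 fold change −0.87, SE 0.21, adjusted p = 0.011 from edgeR), and its exons overlap Gm38287 on the opposite strand. The ubiquitin ligase gene Itch was lower by a small margin (−0.12, adjusted p = 0.039 from edgeR). The ubiquitin ligase genes Nedd4 (0.83, adjusted p = 1.2e-05 from edgeR) and Fbxw7 (0.23, adjusted p = 0.012 from edgeR) were higher.

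Of the further Hes and Hey factors, 5 of 9 had enough counts to be tested and 1 was lower, beside 8.13% of all genes. This was Bhlhe41, a related repressor expressed in B1 cells, which differed by −0.67 in log2 fold change (SE 0.074, adjusted p = 3.7e-05 from edgeR). Hes6 did not pass the test (0.07, adjusted p = 0.50 from edgeR). Hey1 had 9 counts in Ahr+/+ and 2 in Ahr-/-, a ratio of 0.210 with a 95% interval of 0.0221 to 1.01 for counting error alone.

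**Figure D3:**
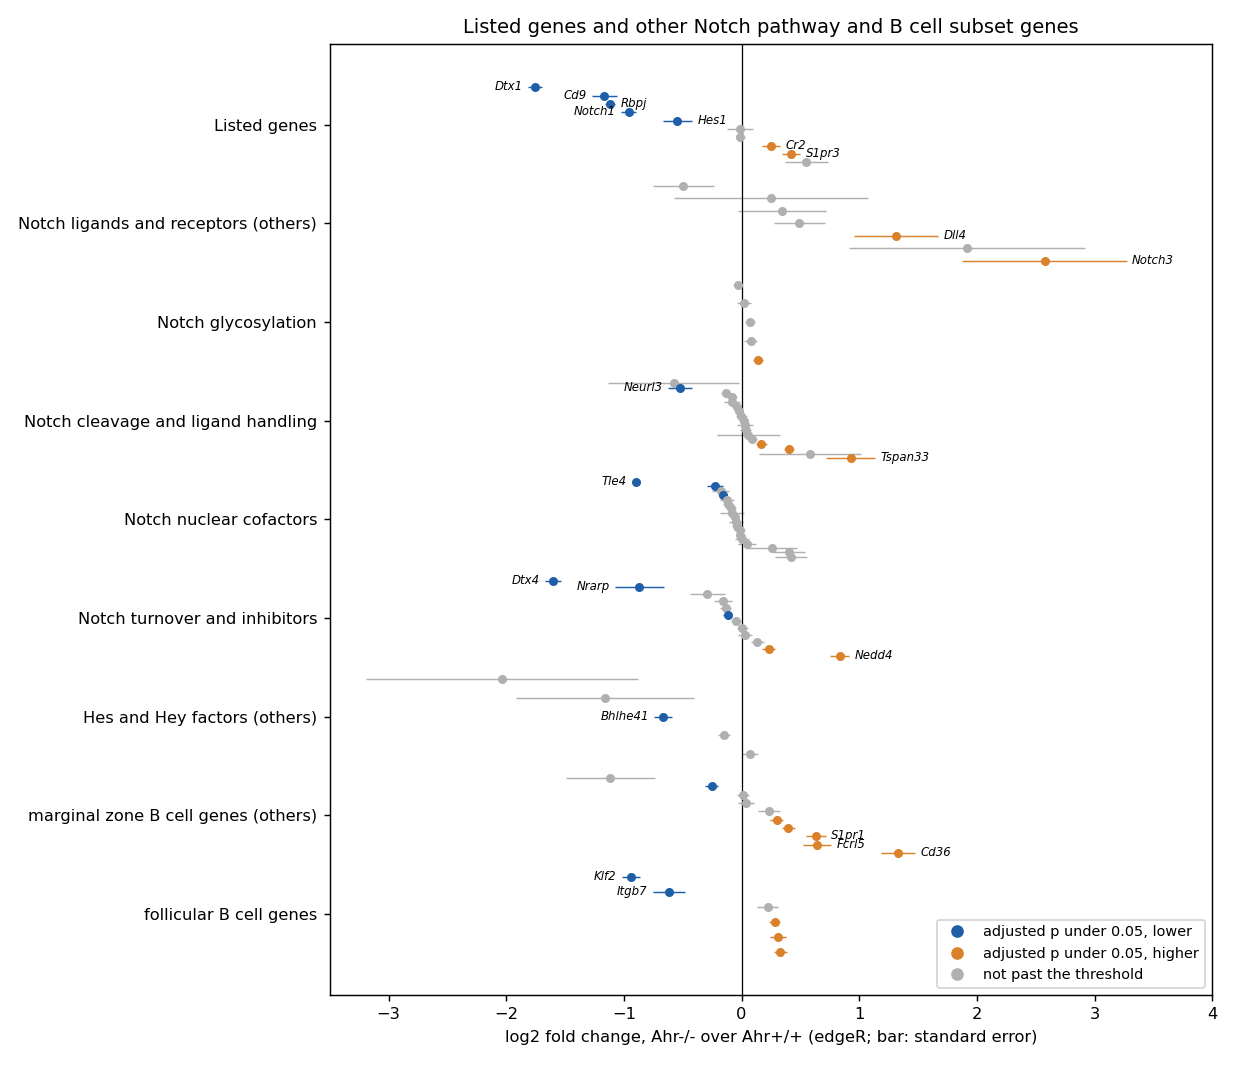
Log2 fold change of Ahr-/- over Ahr+/+ (horizontal axis) for the 10 genes (top row) and for other Notch pathway and B cell subset genes, 1 row per list. Points are edgeR estimates, bars are standard errors and colour marks an adjusted p under 0.05; Dtx1 at −1.75 and its paralog Dtx4 at −1.60 lie near each other, while genes of glycosylation stay close to 0.

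Of 10 tested marginal zone genes beyond those above, 5 were higher and 1 lower in Ahr-/-, beside 9.79% and 8.13% of all genes, with a median log2 fold change of 0.27. This list too was drawn up with earlier results known, and nothing is read from its counts. Cd36, a scavenger receptor of marginal zone B cells, had 178, 189 and 166 normalised counts in Ahr+/+ and 522, 495 and 339 in Ahr-/- (log2 fold change 1.33, SE 0.15, adjusted p = 3.5e-05 from edgeR). Fcrl5, an Fc receptor-like inhibitor on the same cells, was higher by 0.64 (adjusted p = 0.0022 from edgeR). S1pr1, which guides B cells between marginal zone and follicle, was higher by 0.63 (adjusted p = 1.8e-04 from edgeR). Klf3, a transcription factor that promotes marginal zone B cells, and the semaphorin receptor gene Plxnd1 were higher by 0.40 and 0.30 (adjusted p = 3.0e-04 and 0.0025 from edgeR). Cd81, a tetraspanin on the B cell surface, was the lower one (−0.25, adjusted p = 0.0066 from edgeR). Tlr3, a sensor of double-stranded RNA, had 27.2, 26.2 and 38.2 normalised counts in Ahr+/+ and 25.7, 14.2 and 6.38 in Ahr-/-, which did not overlap but did not pass the test (log2 fold change −1.11, adjusted p = 0.065 from edgeR). CD36 is also present on macrophages, platelets, endothelium and some dendritic cells, whose marker sums are given above. Plasmacytoid dendritic cell markers had a median log2 fold change of 1.38, with 7 of 8 higher. Conventional dendritic cell markers had a median of 0.90, with 4 of 8 higher and 1 lower. Over all genes the median was 0.00, with 9.79% higher and 8.13% lower. The part of these cells in the marginal zone gene values was not tested.

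Of 6 tested genes that mark follicular B cells, 3 were higher and 2 lower, beside 9.79% and 8.13% of all genes, in a list also drawn up with earlier results known. Fcer2a (0.31, adjusted p = 0.0076), the chemokine receptor genes Ccr7 (0.33, adjusted p = 7.4e-04) and Cxcr5 (0.28, adjusted p = 7.4e-04) were higher in edgeR. Klf2, which holds B cells in the recirculating state, had 1303, 1397 and 1156 normalised counts in Ahr+/+ and 741, 643 and 645 in Ahr-/- (log2 fold change −0.94, SE 0.076, adjusted p = 2.4e-06 from edgeR). The homing integrin gene Itgb7 was lower by a log2 fold change of −0.62 (adjusted p = 0.0063 from edgeR).

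Over 14 alternatives the log2 fold change lay between −1.79 and −1.70 for Dtx1, between −1.15 and −1.08 for Rbpj, between −1.01 and −0.91 for Notch1 and between −1.27 and −1.02 for Cd9. For S1pr3 it lay between 0.29 and 0.50. Cr2 and Cd1d1 kept their direction, between 0.17 and 0.38 and between 0.43 and 0.64. Notch2 and Hes5 crossed 0 under some, never beyond −0.03 to 0.02 for Notch2 and −0.06 to 0.03 for Hes5.

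**Figure D4:**
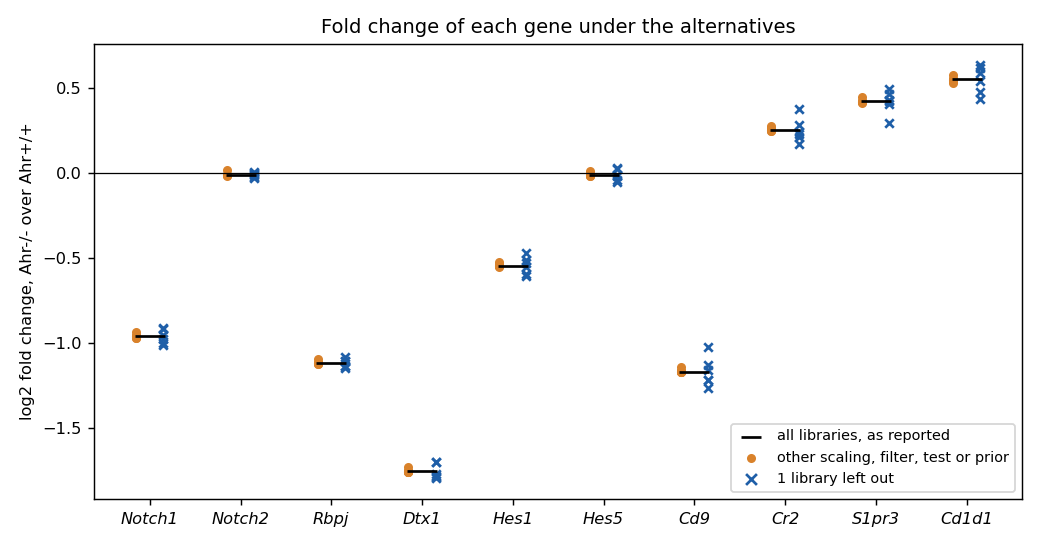
Log2 fold change of Ahr-/- over Ahr+/+ (vertical axis) for each of the 10 genes as reported (line), under other scalings, filters, tests or priors (orange) and with 1 library left out (blue). Cd9 moves most among the lower genes, between −1.27 and −1.02, and Notch2 and Hes5 stay around 0.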

How the data were processed

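The RNA-seq libraries were 6, 1 per mouse, of stimulated splenic B cells (3 mice per genotype). The authors deposited raw counts per gene. The submitters' processing notes name TopHat2, HTSeq, DESeq and the mm10 build, while the annotation and the strand setting of the counting are not given in the sources used here. The libraries were made with a stranded mRNA kit. The deposited normalised counts and the table of the authors' own comparison (fold changes and p-values) were not used. The 10 genes, the pathway lists and the marker lists were chosen with earlier results of these data known. Genes reaching 10 counts in total entered edgeR 4.0.16 (TMM, quasi-likelihood, genotype as only term, R 4.3.3), Benjamini-Hochberg adjusted over all 13682, threshold 0.05, after the steps were tested on simulated data. SE and 95% intervals of log2 fold changes come from the same fit. Positions and exon lengths are from GENCODE M21 (GRCm38), with all 10 genes matched, and promoter sequence is from RefSeq (GRCm38.p6). Named were the 10 genes, up to 4 called genes of each other list with the largest change, and paralogs. Itch, Plxnd1, Cd81, Tlr3, Tspan15, Cxcr5 and single markers of other cells were named after their values were seen. 1 marker of the B cell list is not reported here. Replicates of a genotype differed by more than sampling noise (chi-square per degree of freedom 3.33 to 7.50), so each was counted as its own sample. The p-values measure the spread between these mice, and intervals of count ratios cover counting error only. Alternatives were another scaling, filter, test or prior count, a replicate block and leaving out each library.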

Additional observations from a re-analysis of the deposited data

How the results depend on the processing

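Of the 10 genes, 7 were past the threshold in edgeR and between 5 and 8 under the alternatives. There were 5 without Ahr-/- replicate 2 (Hes1 and Cr2 lost), 6 at an adjusted p under 0.01, with DESeq2, with a robust fit or without Ahr+/+ replicate 2 or 3 or Ahr-/- replicate 1 or 3 (Cr2 lost each time), and 8 with library size alone (Cd1d1 added). Cr2 had a log2 fold change of 0.17 without Ahr+/+ replicate 2 and 0.38 without Ahr+/+ replicate 1. Notch2 turned to 0.0156 and Hes5 to 0.0140 with library size alone, and with 1 library left out they lay between −0.0270 and 0.00578 and between −0.0550 and 0.0314. Library size alone moved the median of all genes by 0.02. Over all genes, 2453 calls became 1473 at an adjusted p under 0.01 and 1664 to 2601 with 1 library left out, lowest without Ahr-/- replicate 2. Of the list counts, ligands and receptors (2) became 0 at the 0.01 threshold, 0 with DESeq2 (2 at an unadjusted p under 0.05, with 3 genes given no adjusted p), 1 with at least 10 counts in 3 libraries, 1 with the replicate block and 0 to 2 with 1 library left out (0 without Ahr+/+ replicate 1 or 3 or Ahr-/- replicate 2). Glycosylation (1) became 0 at 0.01, with DESeq2 (1 at an unadjusted p under 0.05) and with the replicate block, and 0 to 1 with 1 library left out (0 without replicate 2 or 3 of either genotype). Nuclear cofactors (3) became 5 with library size alone, without the filter and with the replicate block, and 2 to 7 with 1 library left out (7 without Ahr-/- replicate 3). Turnover and inhibitors (5) became 2 at 0.01 and 4 to 6 with 1 library left out. Hes and Hey factors (1) became 2 without the filter, with DESeq2, with the robust fit and with the replicate block, and 1 to 2 with 1 library left out (2 without Ahr+/+ replicate 1 or Ahr-/- replicate 3). The cause of these moves was not tested.

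Replicate numbers in the labels did not pair the samples: deviations of same-numbered libraries correlated at −0.14, 0.26 and −0.16 over 10313 genes, and 2 of 6 libraries correlated best with their own number. With the replicate block, 2303 genes and 7 of the 10 were past the threshold. How depth affects single genes was not tested; Notch3 and Hey1 rest on few counts.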
